A study of Mus musculus with 3 samples.

Results

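The Hox genes are the genes of the 4 mammalian Hox clusters, taken here as every gene whose symbol is Hox, a cluster letter from a to d and a number, and which the array's platform annotation assigns to at least 1 probe set naming no other gene. RefSeq lists 39 of them in the mouse and 33 had such a probe set, of the 18194 genes measured. The cells were 3T3-L1 adipocytes, fat cells differentiated in culture from a clonal line of mouse embryo fibroblasts, and all of them had been treated with glucose oxidase for 2 h. Glucose oxidase is an enzyme that gives off hydrogen peroxide as it oxidises glucose, and the labels call the cells insulin resistant. RNA from 3 samples was hybridised to an Affymetrix mouse expression array. All 3 belong to the same group. Untreated cells were not analysed here, and the values therefore show what treated cells held, not what the treatment changed. The labels do not state if each sample was a culture of its own, and the variation among arrays may therefore be technical.

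Hox genes encode homeodomain transcription factors that give cells their position along the head-to-tail axis and along the limb. In each cluster the order of the genes on the chromosome follows the order of the body regions in which they are switched on, with low numbers towards the head and high numbers towards the tail and the tips of the limbs, and genes with the same number in different clusters are paralogues. Fibroblasts and fat depots of adult animals keep a Hox pattern that reflects where in the body they arose. The proteins bind DNA together with homeodomain partners of the PBX, MEIS and PREP families, Polycomb complexes keep the clusters silent, and MLL complexes keep their active parts on.

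Background was set at a log2 intensity of 7.58, the 95th percentile over 83 probe sets that measure chemosensory receptors (olfactory, vomeronasal and taste), and a gene was called above it where at least 1 of its probe sets exceeded this limit in all 3 arrays. By this rule 10 of the 33 Hox genes were above background, or 30.3%, against 54.4% of all genes measured. A gene with more probe sets has more chances to pass the rule, and the shares were not adjusted for this. The 33 Hox genes had 48 probe sets, and the 18194 genes had 34958. Of the Hox genes, 4 of the 22 with 1 probe set and 6 of the 11 with several were called. The 10 genes were Hoxa3, Hoxa4, Hoxa5, Hoxa7 and Hoxa9 in the HoxA cluster, Hoxb2 and Hoxb3 in HoxB, Hoxc9 in HoxC, and Hoxd8 and Hoxd9 in HoxD. By cluster they were 5 of 9 measured genes in HoxA, 2 of 9 in HoxB, 1 of 7 in HoxC and 2 of 8 in HoxD. The share in HoxA, 55.6%, was near the 54.4% of all genes, and those in the other clusters ran from 14.3% to 25%. The HoxA count was 2 when the median of each gene's probe sets was used, and the HoxC count was 0 with background at the 99th percentile, 2 at the 90th and 2 without replicate 3. By paralogue number they were 10 of the 21 measured genes with numbers 2 to 9, 0 of 2 with number 1 and 0 of 10 with numbers 10 to 13. The share for numbers 2 to 9 was 47.6%, not far from that of all genes. These bounds are the lowest and highest numbers among the genes called. Of the 4 measured genes with number 9, 3 were above background. Of the 23 genes not above background, 22 were below it in every array and only Hoxc6 was above it in some. A bulk array gives no means of telling fewer cells with a transcript from less of it in each cell, and a probe set below background does not show that the transcript is absent.

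**Figure D1:**
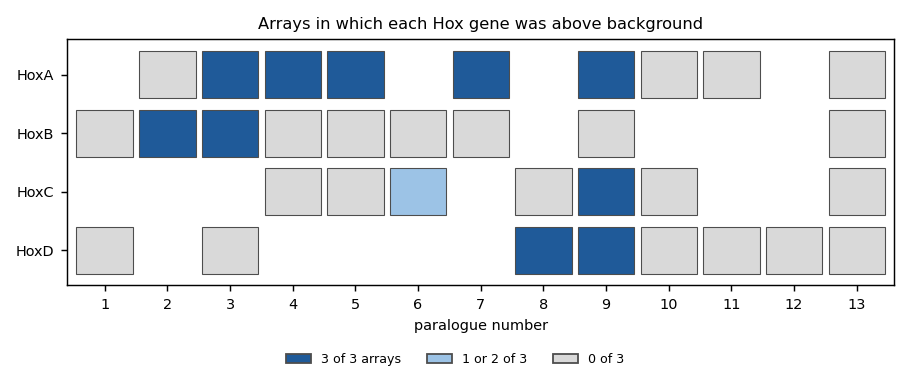
Map of the Hox genes by cluster (rows) and paralogue number (columns), coloured by the number of the 3 arrays in which the gene's brightest probe set was above background, with blanks where no measured gene has that number. The 10 dark cells lie between paralogue numbers 2 and 9, and none of the 10 measured genes with numbers 10 to 13 was above background in any array.

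In HoxA, HoxC and HoxD the calls changed at the step from paralogue 9 to paralogue 10. RefSeq lists no other Hox gene between Hoxd8, Hoxd9 and Hoxd10, or between Hoxa9 and Hoxa10. Hoxd8, Hoxd9 and Hoxa9 were above background, and Hoxd10 and Hoxa10 were not, although for Hoxa9 this rests on 1 of its 2 probe sets. The 250 bases before the start of each of these 5 genes are shown because they stand on either side of that step. The sequences are from RefSeq on GRCm38.p6, read 5′ to 3′ on the strand of the gene, with each CG dinucleotide in capitals. Clustered CG dinucleotides mark the promoters that Polycomb and MLL complexes bind in vertebrates. The windows are chr2:74704365-74704614 on the plus strand for Hoxd8, chr2:74697513-74697762 on the plus strand for Hoxd9, chr2:74691641-74691890 on the plus strand for Hoxd10, chr6:52227371-52227620 on the minus strand for Hoxa9 and chr6:52234940-52235189 on the minus strand for Hoxa10.
Hoxd8: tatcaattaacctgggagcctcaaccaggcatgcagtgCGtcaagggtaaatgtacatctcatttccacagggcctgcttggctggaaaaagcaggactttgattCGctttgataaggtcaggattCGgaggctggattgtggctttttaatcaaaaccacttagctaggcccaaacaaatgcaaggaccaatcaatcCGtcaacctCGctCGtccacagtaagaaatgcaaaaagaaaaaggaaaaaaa
Hoxd9: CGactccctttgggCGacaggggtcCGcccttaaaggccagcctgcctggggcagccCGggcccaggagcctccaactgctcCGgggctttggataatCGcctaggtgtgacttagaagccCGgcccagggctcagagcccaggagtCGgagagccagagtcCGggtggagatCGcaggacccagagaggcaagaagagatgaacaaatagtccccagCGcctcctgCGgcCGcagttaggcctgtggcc
Hoxd10: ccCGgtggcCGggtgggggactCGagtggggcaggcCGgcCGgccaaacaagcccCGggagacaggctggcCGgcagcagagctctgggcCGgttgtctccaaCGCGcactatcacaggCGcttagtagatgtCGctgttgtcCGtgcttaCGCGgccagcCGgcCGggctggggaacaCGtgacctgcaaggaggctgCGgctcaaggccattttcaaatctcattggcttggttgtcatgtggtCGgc
Hoxa9: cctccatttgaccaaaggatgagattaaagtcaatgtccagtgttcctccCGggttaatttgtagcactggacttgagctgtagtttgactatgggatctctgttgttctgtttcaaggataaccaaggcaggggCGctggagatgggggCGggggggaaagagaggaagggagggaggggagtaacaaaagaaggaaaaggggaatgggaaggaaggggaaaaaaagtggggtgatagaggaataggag
Hoxa10: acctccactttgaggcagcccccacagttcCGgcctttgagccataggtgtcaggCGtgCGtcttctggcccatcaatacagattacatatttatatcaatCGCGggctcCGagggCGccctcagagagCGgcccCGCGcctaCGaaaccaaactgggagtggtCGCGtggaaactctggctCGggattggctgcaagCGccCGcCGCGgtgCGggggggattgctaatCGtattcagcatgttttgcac
The windows held 6 CG dinucleotides for Hoxd8, 13 for Hoxd9 and 3 for Hoxa9, which were above background, and 20 each for Hoxd10 and Hoxa10, which were not. Hoxa10 has another start in the table, with 7 in its window. Across the 32851 starts in the promoter table the median was 6, and 17.9% of them had 20 or more.

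These 5 windows were chosen for the calls of their genes, and over all Hox genes with a window the 2 kinds overlapped. The promoter table held 24 starts of 22 Hox genes, with a median of 12.5 CG dinucleotides. The median was 10 over the 6 starts of genes above background and 13 over the 15 starts of genes not above it, with ranges of 3 to 28 and 2 to 35. Hoxa5 was above background with 28 in its window, and Hoxa2, just below background, had 6. The sequence TGATNNAT, a site for PBX and HOX proteins bound side by side, was looked for on both strands. It was found in 0 of the 6 starts of genes above background and in 3 of the 15 starts of genes not above it, against 7.68% of all starts. The TATA box letters TATAAA, searched in the same way, were in 0 of 6 and 2 of 15, against 12.4% of all starts. The window of Hoxa10 printed above holds TATAAA on one of its strands.

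In HoxA and HoxC a gene of the miR-196 family lies at the same step, since RefSeq places Mir196b between Hoxa9 and Hoxa10 and Mir196a-2 between Hoxc9 and Hoxc10. Mir196a-1 lies between Hoxb9 and Hoxb13, neither of which was above background. In vertebrates miR-196 pairs with Hox transcripts and lowers their amount, and its sequences are given for that reason, with the seed, bases 2 to 8, in capitals. Mir196a-1 and Mir196a-2 give the same mature sequence, and all 3 genes share the seed. On GRCm38.p6 RefSeq places the mature sequences at chr11:96265187-96265208 (plus strand, Mir196a-1), chr15:102973365-102973386 (plus strand, Mir196a-2) and chr6:52230129-52230150 (minus strand, Mir196b). The level of these miRNAs was not measured here.
miR-196a-5p: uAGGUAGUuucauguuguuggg
miR-196b-5p: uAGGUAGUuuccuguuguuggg

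In the HoxD cluster, Hoxd8 and Hoxd9 were above background. Both are central members of the cluster with roles in the trunk and the early limb bud. Hoxd8 had log2 intensities of 10.90, 10.92 and 11.00 in replicates 1, 2 and 3, or 10.94 ± 0.06 (SD, n = 3). Its other probe set was at 10.44 ± 0.02 (SD, n = 3), so both probe sets of the gene stood far above background in every array. Hoxd9, measured by 1 probe set, was at 9.62, 9.72 and 9.75, or 9.70 ± 0.06 (SD, n = 3). Hoxd10, a gene of the hindlimb and lumbar region, was at 4.24, 4.23 and 4.19, more than 3 log2 units below background in all 3 arrays. Hoxd11 was at 5.33 ± 0.15, Hoxd12 at 5.02 ± 0.05 and Hoxd13, a gene of the digits, at 6.79 ± 0.08 (SD, n = 3). At the other end of the cluster, Hoxd1 was at 4.14 ± 0.03 and Hoxd3 at 7.09 ± 0.06 (SD, n = 3). The value of Hoxd3 rests on 1 probe set. Hoxd4, which RefSeq places beside it, had no probe set of its own, and a probe set that the 2 genes share was above background in all 3 arrays, at 8.76 ± 0.05 (SD, n = 3), so the calls on that side of Hoxd8 are not settled.

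In the HoxA cluster, the 5 genes above background followed each other without a measured gene below background between them. Hoxa6, which lies within that stretch, had no probe set of its own. Hoxa5, which is expressed in fat depots of the mouse and patterns the neck and upper thorax, was above background by both of its probe sets. Its brighter one was at 9.09, 9.01 and 9.11, or 9.07 ± 0.05 (SD, n = 3), and the other was at 8.89 ± 0.10 (SD, n = 3). Hoxa7, a gene of the thoracic region, was at 8.57, 8.59 and 8.49, or 8.55 ± 0.05 (SD, n = 3). Hoxa4 was at 8.39, 8.44 and 8.36, or 8.40 ± 0.04 (SD, n = 3), by its brighter probe set. The other probe set of Hoxa4, at 6.51 ± 0.02 (SD, n = 3), was below background in all 3 arrays.

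Hoxa9 and Hoxa3 lay at the ends of the stretch. Hoxa9, a gene of the lower trunk and limb that also maintains blood progenitors, was at 8.28, 8.27 and 8.09, or 8.21 ± 0.10 (SD, n = 3). Hoxa3, which the thymus and parathyroid need to form, was at 8.09, 7.84 and 8.06, or 7.996 ± 0.14 (SD, n = 3). Beyond these ends the measured genes were not above background. Hoxa2, which patterns the pharyngeal arches, was at 7.58, 7.58 and 7.43, with the first 2 arrays just under the limit at intensities of 191.1 and 191.1 against 191.6. On the other side, Hoxa10 was at 5.31 ± 0.08, Hoxa11 at 5.68 ± 0.02 and Hoxa13 at 5.70 ± 0.16 (SD, n = 3). Hoxa10 and Hoxa11 are genes of the uterus and the middle limb, and Hoxa13 of the digits and genital tract.

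In the HoxB cluster only Hoxb2 and Hoxb3, neighbours in paralogue number that pattern the hindbrain, were above background among 9 measured genes. Hoxb2 was at 8.48, 8.54 and 8.49, or 8.50 ± 0.03 (SD, n = 3). Hoxb3 was at 8.31, 8.32 and 8.28, or 8.30 ± 0.02 (SD, n = 3). Hoxb4, next to Hoxb3 in paralogue number and known for its part in blood stem cell renewal, was at 7.50, 7.46 and 7.39. It was thus below background in every array. Hoxb5, Hoxb6, Hoxb7 and Hoxb9 were at 6.08, 5.47, 5.78 and 6.01, Hoxb1 was at 4.91 and Hoxb13, a gene of the prostate and tail, was at 6.51.

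In the HoxC cluster only Hoxc9, a thoracic gene used as a marker of white subcutaneous fat, was above background. Hoxc9 was at 7.99, 8.02 and 7.97, or 7.99 ± 0.03 (SD, n = 3), so its margin over the limit was small but its arrays lay close together. Hoxc6 was the only Hox gene whose call differed between arrays, at 7.85, 7.81 and 7.44 or 7.70 ± 0.23 (SD, n = 3). Hoxc8, another gene used as a marker of white fat, was at 3.33, 3.36 and 3.43, or 3.37 ± 0.06 (SD, n = 3), far below background by the 1 probe set it has. Hoxc4 was at 6.66 ± 0.19, Hoxc5 at 6.77 ± 0.05, Hoxc10 at 4.86 ± 0.17 and Hoxc13, a gene of the hair follicle, at 7.27 ± 0.07 (SD, n = 3). Just outside the limit on this array were thus Hoxc6, Hoxa2, Hoxb4 and Hoxc13, and just inside it Hoxc9 and Hoxa3, a description that does not order the amounts of their transcripts.

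**Figure D2:**
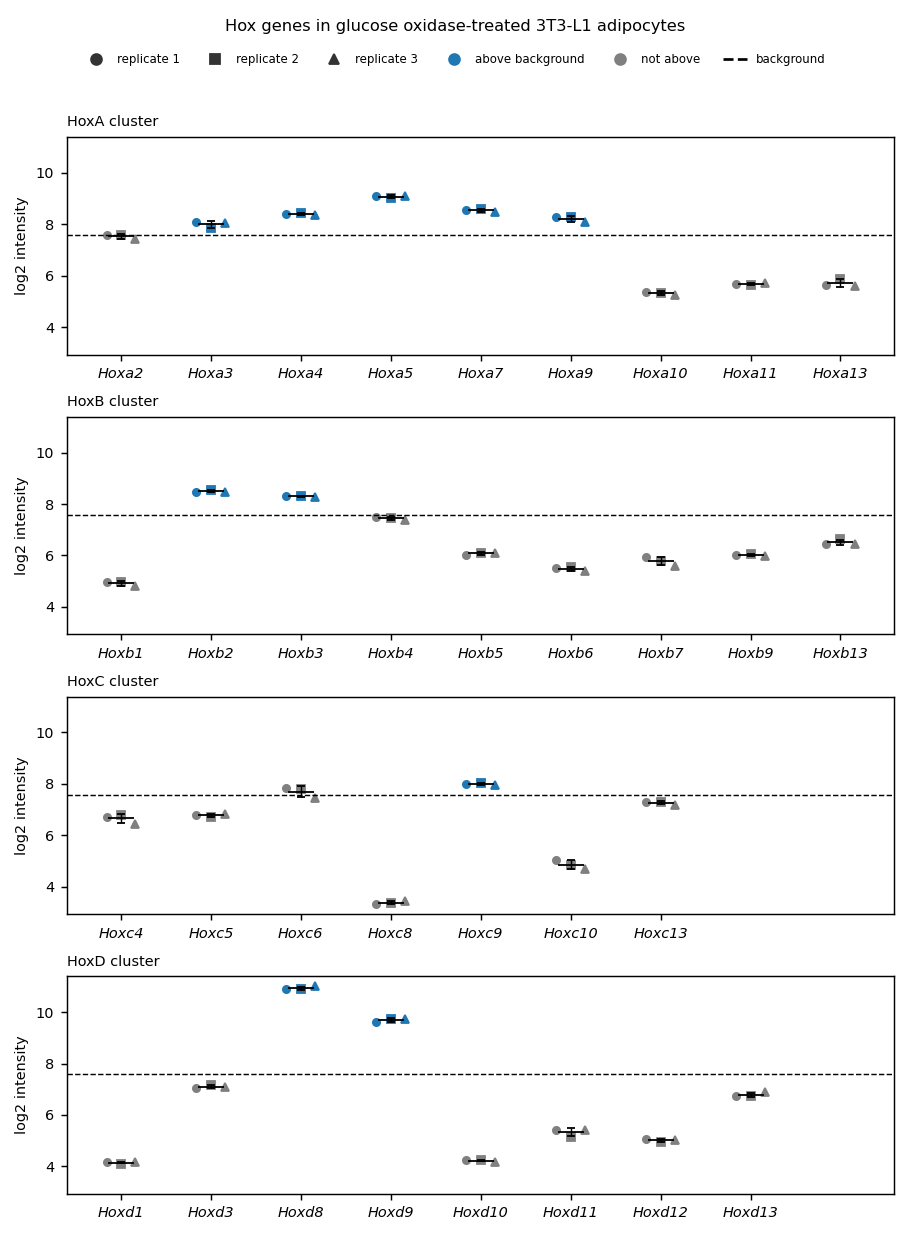
Log2 intensity (y axis) of each Hox gene's brightest probe set (x axis, by cluster and paralogue number), showing each replicate as a symbol, bars for the mean and SD of the 3 replicates, and a dashed line that marks background (7.58). Blue genes, such as Hoxd8 at 10.94 and Hoxd9 at 9.70, are above the line in all 3 replicates, and since each gene has its own probes, heights should not be compared between genes.

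The 10 genes with paralogue numbers 10 to 13 had mean log2 intensities from 4.22 to 7.27, with a median of 5.50, and the highest value of any of them in a single array was 7.31. The 2 genes with paralogue number 1 were at 4.91 for Hoxb1 and 4.14 for Hoxd1. None of these genes was called under any alternative background, choice of probe set or subset of arrays that was tried. Of the 10 genes above background, 6 (Hoxa5, Hoxa7, Hoxb2, Hoxb3, Hoxd8 and Hoxd9) were called under all 9 alternatives. Hoxa4, Hoxa9 and Hoxc9 were called under 8 of the 9 and Hoxa3 under 5.

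The arrays lay close together for the genes above background. The SD between arrays over these 10 genes had a median of 0.052 on the log2 scale and ran from 0.024 for Hoxb3 to 0.136 for Hoxa3, against a median of 0.048 over all 9889 genes above background. For the 23 Hox genes not above background the median was 0.077, and it was also 0.077 over all 8305 genes not above background. With replicate 2 left out the median over the 10 genes was 0.020, and with replicate 3 left out it was 0.033. Among the 10 genes the highest array was replicate 1 for 2 genes, replicate 2 for 5 and replicate 3 for 3. Among all genes above background it was replicate 1 for 23.6%, replicate 2 for 35.5% and replicate 3 for 40.8%.

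Probe sets of the same gene gave different calls for some Hox genes. Of the 33 genes, 22 had 1 probe set and 11 had several. In 7 of the 11 all probe sets gave the same call, both above background for Hoxa5 and Hoxd8 and none above it for Hoxa10, Hoxb4, Hoxc5, Hoxc6 and Hoxd13. In the other 4, which were Hoxa3, Hoxa4, Hoxa9 and Hoxb3, 1 probe set was above background in all 3 arrays and the rest were not. The dimmer probe set of Hoxb3 was at 7.93, 7.43 and 7.77, below the limit in replicate 2 alone. Hoxa9 was at 8.21 by its brighter probe set and at 5.44 ± 0.06 (SD, n = 3) by the other. Hoxa4 was at 8.40 and at 6.51 ± 0.02 (SD, n = 3). Hoxa3 had 4 probe sets, at 7.996, 7.39, 6.47 and 5.49. The one above background ends in _s_at, a suffix by which the maker marks probe sets that can match more than 1 transcript, and without such probe sets Hoxa3 was not called. When the probe sets of each gene were replaced by their median, Hoxa3, Hoxa4 and Hoxa9 were at 6.93, 7.45 and 6.83 and were not called, which left 2 of 9 genes in HoxA. Probe sets of one gene can lie in different exons or end at different polyadenylation sites, and which of them follow the full transcript was not tested.

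**Figure D3:**
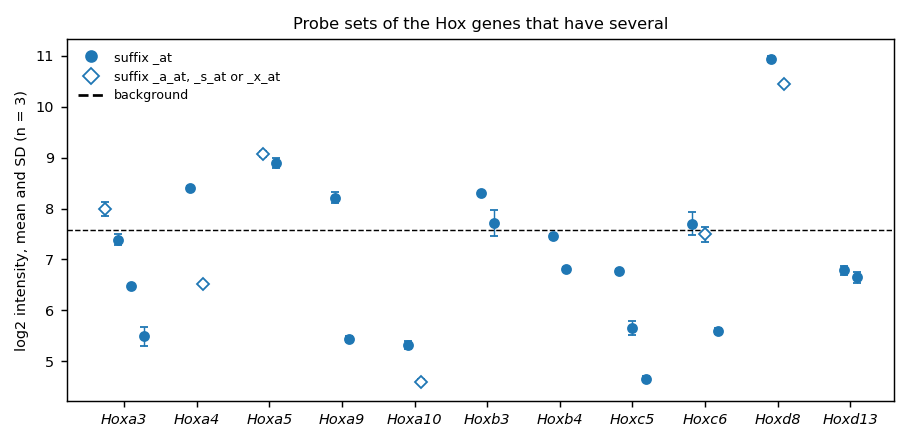
Mean log2 intensity and SD (y axis, n = 3) of every probe set of the 11 Hox genes that have several (x axis), with open diamonds for probe sets that can match more than 1 transcript and the dashed line marking background (7.58). Both probe sets of Hoxa5 and of Hoxd8 are above the line, whereas those of Hoxa3, Hoxa4 and Hoxa9 lie on both sides of it, and the dimmer one of Hoxb3, at 7.71, has an error bar that crosses it.

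Partners and regulators of Hox proteins were mostly above background. Of 8 measured PBX, MEIS and PREP cofactors, 6 were above background, against 54.4% of all genes. Meis2 was at 10.25 ± 0.02, Pbx2 at 10.09 ± 0.004, Pknox1 at 9.40 ± 0.02 and Meis1 at 8.30 ± 0.01 (SD, n = 3). Pbx4 and Pknox2 were not, at 6.15 and 7.47. Without probe sets that can match more than 1 transcript, 2 of 6 cofactors were above background, and the count over all genes was 8175 against 9889. All 26 measured Polycomb genes were above background, among them Ezh2, which encodes the enzyme that methylates histone H3 in these complexes, at 9.12 ± 0.02 (SD, n = 3). Named for their intensity, Rbbp4, Rbbp7, Bmi1 and Aebp2 were at 12.28, 12.12, 11.36 and 11.06. Taking median probe sets instead, the Polycomb count was 17, and that over all genes fell from 9889 to 7964. The 14 measured genes of the MLL and trithorax list were also all above background, including Kmt2a, which encodes MLL1, at 8.82 ± 0.03 and the H3K27 demethylase gene Kdm6b at 10.99 ± 0.03 (SD, n = 3). Dpy30, Hcfc1 and Men1, which encode parts of MLL complexes or their partners, were at 10.04, 9.94 and 9.77. Both lists encode factors that most cell types express. Ezh2 and Kmt2a were named after their values were seen.

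Of 18 measured genes that act upstream of the clusters, 9 were above background, a share close to the 54.4% of all genes. The caudal factors that open the clusters in the embryo were all below it, with Cdx1 at 5.57, Cdx2 at 6.36 and Cdx4 at 3.79. The retinoid receptor genes Rxra, Rxrb and Rarg were at 10.96, 10.21 and 9.91, Rdh10, for an enzyme of retinoid synthesis, was at 8.89, and Rara was just above background at 7.72 ± 0.08 (SD, n = 3). Aldh1a1, Aldh1a2 and Aldh1a3, which encode the enzymes that make retinoic acid, were not above background, at 6.56, 5.79 and 6.43. The Cdx and Aldh1a genes and Rara were named after their values were seen.

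Other regulators of position also showed a partial pattern, with 17 of 48 measured genes above background, against 54.4% of all genes. The list holds homeobox and T-box genes and also genes of other families, among them Twist1 and Twist2. The count was 11 when median probe sets were taken, and that over all genes fell from 9889 to 7964. The 4 named for their intensity were Irx3 at 10.80 ± 0.04, Twist2 at 10.38 ± 0.05, Twist1 at 10.05 ± 0.03 and Shox2 at 9.93 ± 0.02 (SD, n = 3). Shox2 patterns the upper limb and is expressed in subcutaneous fat of the mouse. Tbx15, a gene of some subcutaneous fat depots, was at 8.34 ± 0.05 (SD, n = 3) and Irx5 at 8.98 ± 0.17 (SD, n = 3). The limb genes Tbx5 and Pitx1, which mark the forelimb and the hindlimb, were both below background, at 7.50 ± 0.08 and 7.07 ± 0.06 (SD, n = 3). The hindlimb gene Tbx4, at 5.78, was below it too. Tbx5 lay close to the limit, at 7.56, 7.53 and 7.41, and was above background when this was set at the 90th percentile (7.39). The head regulators Otx2, Gbx2 and Zic1 were at 3.80, 3.61 and 3.45. Tbx15, Irx5, Tbx5, Pitx1, Tbx4, Otx2, Gbx2 and Zic1 were named after their values were seen.

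**Figure D4:**
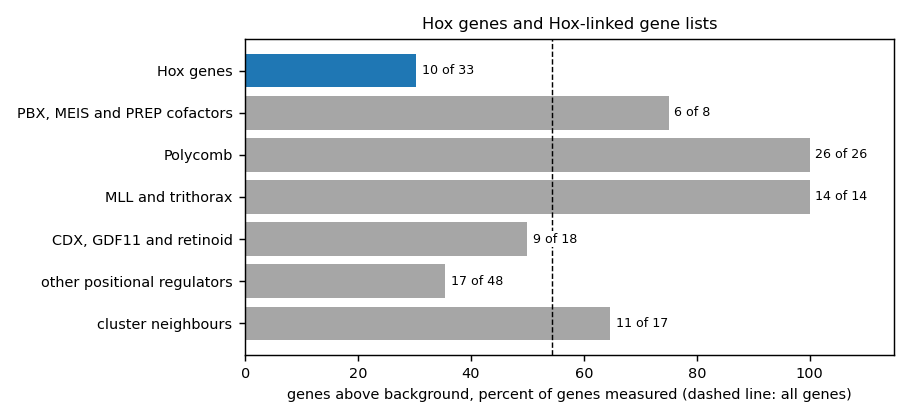
Percent of the measured genes that were above background (x axis) for the Hox genes and 6 Hox-linked lists (y axis), with the count beside each bar and the share over all genes as a dashed line at 54.4%. The Hox genes, at 10 of 33, and the other positional regulators, at 17 of 48, lie left of the line, and in the Polycomb list and the MLL and trithorax list every measured gene is above background.

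Genes on either side of the clusters were partly above background. Skap2, beside the low-number end of HoxA, was at 11.09 ± 0.06, Mtx2, beside that end of HoxD, at 11.61 ± 0.02, and Lnpk, beyond the high-number end of HoxD, at 8.87 ± 0.06 (SD, n = 3). Evx1 and Evx2, homeobox genes beyond the high-number ends of HoxA and HoxD, lay below background at 6.39 ± 0.11 and 7.15 ± 0.06 (SD, n = 3). Skap1, beside the low-number end of HoxB, was below background at 5.39 ± 0.04 (SD, n = 3). Beyond the high-number end of HoxB, Snf8, Ube2z and Atp5g1 were above background at 10.51, 10.67 and 11.12. Calcoco2 and Ttll6 at that end were below it, at 3.59 and 6.46. In the list of cluster neighbours and noncoding genes, 11 of 17 measured genes were above background, against 54.4% of all genes. That list includes Hoxb5os, Hoxd3os1 and Hoxa11os, which lie within the clusters, and genes farther out such as Atp5g3. Snf8, Ube2z, Atp5g1 and Calcoco2 are not in it, so the count is not one of the flanking genes alone. The 4 named for their intensity, Atp5g3, Hibadh, Mtx2 and Snx10, were at 13.99, 13.18, 11.61 and 11.20. Skap1, Skap2, Lnpk, Evx1, Evx2, Snf8, Ube2z, Atp5g1, Calcoco2 and Ttll6 were named after their values were seen.

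Markers of the labelled cell type were mostly above background. Of 12 measured adipocyte genes, 11 were above background, with Adipoq at 14.49 ± 0.03 (SD, n = 3), and Lep, at 5.79, was not. Of 10 preadipocyte and fibroblast genes 9 were, and Cd34, at 5.49, was not. The tissue is given as preadipocytes in the labels, but their growth protocol describes differentiation into adipocytes, and how many cells had stayed undifferentiated was not tested. Since Hox genes mark the origin of a cell, markers of other cell types are given beside them. They were above background in 3 of 8 macrophage, 1 of 7 endothelial, 2 of 7 skeletal muscle and 1 of 7 neuron genes, against 54.4% of all genes. Those above it were Lyz2, Cd14 and Csf1r at 11.19, 8.83 and 8.70, Kdr at 8.29, Des and Ckm at 9.07 and 8.25, and Syn1 at 7.94. Summed over each list in the same order, intensities ran on the log2 scale from 11.79 to 11.88, 9.05 to 9.16, 10.21 to 10.26 and 9.44 to 9.47 over the arrays. Those below background included Ptprc, Pecam1, Myod1 and Snap25 at 4.64, 5.50, 6.78 and 4.26, which were named after their values were seen. The part of other cells in the Hox values was not tested.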

How the data were processed

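The deposited values were linear intensities of 45101 probe sets in 3 arrays, which per the methods the authors obtained by RMA (background correction, normalization and summarisation) with affyPLM. The version, any later scaling and which arrays were normalized together are not given in the sources used here. Array medians were 127.6, 126.9 and 126.9, and values were converted to log2 unchanged. The number of arrays limits the precision.

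Of the probe sets, 34958 named 1 gene, 932 several and 9211 none in the platform annotation. Of those with 1 gene, 34754 matched RefSeq (GRCm38.p6) by Entrez identifier and 0 symbols changed. Each gene is represented by whichever of its probe sets averaged highest, and since probes differ, levels do not order genes by amount of transcript. Intensity was used to choose which genes to name. The members and the gene lists were chosen with earlier results of these data known, and no statistical test was made between groups. Named were every Hox gene above background, the 4 nearest below it with the rest by value, and in each Hox-linked list the 4 highest genes and those below background where 3 or fewer. The calling step was also run on simulated data as a check of the code only, and the calls of genes close to background do not rest on it. As alternatives, background was moved to the 99th and 90th percentiles or taken from other genes, probe sets were replaced by their median or dropped where they can match several transcripts, arrays were centred, and each array was omitted. Gene order came from RefSeq. Python 3.11.15 with pandas 2.3.3, numpy 2.4.6 and matplotlib 3.10.9 was used.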

Additional observations from a re-analysis of the deposited data

Results flagged for a closer look

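A probe set that the annotation assigns to both Hoxd3 and Hoxd4, and which therefore entered no count, was above background in all 3 arrays. Its log2 intensities were 8.77, 8.70 and 8.80, with a mean of 8.76 and an SD of 0.05 (n = 3). Another probe set shared by these genes was at 7.46, 7.32 and 7.96, above background in 1 array, and the probe set of Hoxd3 alone was at 7.09 ± 0.06 (SD, n = 3). The shared signal cannot be assigned to either gene. The probe set shared by Hoxb7 and Hoxb8 was below background in every array, at 5.54 ± 0.05 (SD, n = 3).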

How the results depend on the processing

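No paired analysis was possible because there is a single group of arrays. The count of 10 Hox genes above background was 7 using median probe sets, 8 at the 99th percentile, 12 at the 90th, 9 when background came from keratin-associated protein and defensin genes, 9 without probe sets that can match several transcripts, and between 10 and 11 when 1 array was omitted. The count over all genes moved too, from 9889 to 7964, 8688, 10429, 8972 and 8175 under the first 5 of these settings. It was between 9915 and 10025 when 1 array was omitted. Dropping probe sets that can match several transcripts also lowers the number of genes measured. At the 99th percentile Hoxa3 and Hoxc9 were lost, and at the 90th Hoxa2 and Hoxc6 were gained. The HoxA count of 5 was 2 using median probe sets. The HoxC count of 1 was 0 at the 99th percentile, 2 at the 90th and 1 to 2 when an array was omitted, Hoxc6 joining without replicate 3. The median SD of 0.052 was 0.020 without replicate 2, 0.033 without replicate 3 and 0.056 without replicate 1. Among the levels of the 10 genes, 6 shifted beyond 1 SD using median probe sets. These were the 6 genes with several probe sets, where the median takes in dimmer probe sets of the same gene. Without probe sets that can match several transcripts, Hoxa3 moved from 7.996 to 7.39 and Hoxa5 from 9.07 to 8.89, beyond 1 SD. That setting drops the brightest probe set of each of them. The cause of the remaining changes, such as those of the median SD, was not tested. Closeness to background limits most the calls of Hoxa2, Hoxa3, Hoxb4, Hoxc6 and Hoxc9. Of the 10 genes above background, only 3 (Hoxa5, Hoxd8 and Hoxd9) exceeded the limit by more than 1 log2 unit in the mean.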

Other observations

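Long noncoding RNA genes within the Hox clusters were partly above background, and Gm38462, Gm15050 and Evx1os were chosen after their values were seen. Of 6 measured in or beside the clusters, 3 were above background, a share near the 54.4% of all genes. Gm38462, which RefSeq places between Hoxd9 and Hoxd8 and which overlaps Hoxd8, was at log2 intensities of 10.09, 9.98 and 9.99, or 10.02 ± 0.06 (SD, n = 3). Gm15050, listed between Hoxa3 and Hoxa4, was at 9.31, 9.31 and 9.21, or 9.28 ± 0.06 (SD, n = 3). Both lie beside Hox genes that were themselves above background. Hoxb5os, which spans Hoxb5 and Hoxb6, was at 7.87, 7.996 and 7.90, or 7.92 ± 0.06 (SD, n = 3), while Hoxb5 and Hoxb6 were below background in all 3 arrays. The margin of Hoxb5os was small. It was not called with background at the 99th percentile (8.05) or from keratin-associated protein and defensin genes (7.93). Hoxa11os, Hoxd3os1 and Evx1os were not above background, at 4.92, 7.16 and 5.50.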
